A study of Mus musculus with 5 samples.

Results

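NADPH oxidase makes superoxide at the macrophage membrane, and antioxidant enzymes remove the superoxide and the hydrogen peroxide that follows from it. For these 2 systems 9 genes were read in RNAseq of macrophages sorted from mouse aortas with atherosclerosis. They were the NADPH oxidase genes *Cybb*, *Cyba*, *Ncf1*, *Ncf4* and *Rac2* and the antioxidant genes *Sod1*, *Sod2*, *Prdx1* and *Txn1*. They were chosen by symbol, and each of the 9 matched 1 of the 55487 genes of the count table.

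The study asked how the transcription factor ZEB1 acts in macrophages during plaque formation. The genotypes were compared in male mice, with 2 libraries labelled Zeb1WT/ApoeKO and 3 labelled Zeb1∆M/ApoeKO. Zeb1WT mice carried a floxed *Zeb1* allele on both chromosomes (Zeb1 fl/fl), and Zeb1∆M mice carried the same allele with LysM-Cre, in which Cre is driven from the *Lyz2* locus and so acts in myeloid cells in general and not in plaque macrophages alone. Both genotypes lacked *Apoe*, were fed chow for 8 weeks and a Western diet for the next 10 weeks, and were 18 weeks old at the end. Viable CD45+ F4/80+ cells were sorted, with CD11b also in the gate that the methods describe, and each genotype and condition pooled the macrophages of 3 mice. The labels name whole aortas as the source and the sequencing methods the aortic sinus. No label says that the libraries of a genotype came from separate mice. A legend of the paper counts them as mice and its statistics section describes replicates as biologically independent, while the sequencing methods describe mixing, so p-values are read here as the spread between these libraries.

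In the resting macrophage NADPH oxidase is split between membrane and cytosol. *Cybb* encodes NOX2, the subunit that carries electrons across the membrane, and *Cyba* encodes its stabilizing partner p22phox. On activation the organizer p47phox (*Ncf1*), p40phox (*Ncf4*) and the small GTPase RAC2 move to the membrane and start electron transfer from NADPH to oxygen. Superoxide is turned into hydrogen peroxide by superoxide dismutases, SOD1 in the cytosol and SOD2 in mitochondria. Peroxiredoxin 1 (*Prdx1*) reduces hydrogen peroxide and is itself reduced by thioredoxin (*Txn1*). In macrophages the oxidase is known for host defence, and in plaques for the oxidation of lipoproteins.

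Many myeloid promoters carry binding sites for the transcription factor PU.1, and many antioxidant genes carry the antioxidant response element bound by NRF2, so both motif cores were looked for in the promoters. RefSeq promoter windows (GRCm38.p6, 250 bases before to 50 after the start) were at hand for 7 of the 9 genes, *Ncf4* and *Rac2* being the others. The core of the antioxidant response element, TGACNNNGC on either strand, was present in 2 of these 7 windows and in 12.4% of 32851 promoter windows. The matches are shown because one is in *Prdx1*, the antioxidant gene with the most counts in 4 of the 5 libraries, and the other in *Sod1*, the one of the 9 with the steadiest level. Capitals mark the motif, which in both lies on the strand opposite to the gene, 133 bases upstream of the RefSeq start in *Prdx1* (chr4:116685456-116685485, plus strand shown) and 56 bases upstream in *Sod1* (chr16:90220696-90220725, plus strand shown).
Prdx1: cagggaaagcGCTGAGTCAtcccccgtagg
Sod1: gccaaggtggGCGTGGTCAgactcaggcct
The letters AGAGGAAG, a core of PU.1 and other ETS sites, were in none of the 7 windows on either strand, and in 4.55% of all promoter windows. A match is a description of the letters and no binding was measured here.

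Total counts were 20118545 to 50649912 per library, and 3 counts, taken as the floor of detection, were 0.0592 to 0.149 CPM, the usual unit of a count relative to the total of its library. Because PCR copies of 1 molecule are read more than once, floors and intervals speak for counting error alone. Both libraries numbered 1 stood apart from the other 3. Only 1714 genes reached 100 counts in Zeb1WT/ApoeKO replicate 1 and 870 in Zeb1∆M/ApoeKO replicate 1, against 3173 to 4421 elsewhere. They differed from each other at the low end, where Zeb1∆M/ApoeKO replicate 1 had 16423 genes above 3 counts against 5009 to 6931 in the other 4 libraries. It also had the highest shares of genes annotated as rRNA (8.67%) and of mitochondrially encoded genes (4.61%), against at most 3.42% and 3.35% in the others. Hemoglobin transcripts were 0.803% of the counts of Zeb1∆M/ApoeKO replicate 1 and at most 0.000373% of any other library. *Zeb1* was counted in that library only (22 counts), so the counts did not check the genotype labels. Macrophage markers were present throughout, with 7 of 12 above 3 counts in all 5 libraries and a summed level of 23059 to 36082 CPM, but *Cd68* and *C1qa* had 0 counts in Zeb1WT/ApoeKO replicate 1 and 10 and 5 in Zeb1∆M/ApoeKO replicate 1.

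All 9 genes were above the floor in at least 1 library of each genotype, but fewer of them in every library. For 4 of the 9, *Cybb*, *Cyba*, *Sod1* and *Prdx1*, there were more than 3 counts in all 5 libraries, as for 13.7% of the 7905 genes tested. At 100 counts or more, 3 and 8 of the 9 genes were present in Zeb1WT/ApoeKO replicates 1 and 2, and 4, 9 and 9 in Zeb1∆M/ApoeKO replicates 1, 2 and 3. Of the genes tested, 20.2% and 48.4% reached that level in the Zeb1WT/ApoeKO libraries and 9.83%, 36.7% and 46.7% in the Zeb1∆M/ApoeKO libraries. The missing genes were thus concentrated in the libraries numbered 1.

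None of the 9 genes differed between the genotypes beyond the spread between libraries. With the quasi-likelihood test of edgeR and Benjamini-Hochberg adjustment, 0 of the 9 and 0 of 7905 genes tested (0%) had an adjusted p under 0.05, and the adjusted p was 1 for each of the 9. At an unadjusted p under 0.05 there were 86 genes (1.09%), of which 1, *Ncf4*, was among the 9. DESeq2 with default options called 790 of 6519 genes (12.1%) and limma-voom with sample quality weights 234 of 7905 (2.96%), and neither called any of the 9, although DESeq2 gave *Ncf4* no adjusted p. Every Zeb1∆M/ApoeKO library lay above every Zeb1WT/ApoeKO library for 2 of the 9 genes, *Ncf4* and *Sod2*, against 6.68% of the genes tested in that direction and 11.2% in either direction. In bulk RNA, fewer expressing cells and less RNA per cell cannot be told apart, and this holds for each level below. In what follows CPM are scaled with TMM factors (trimmed mean of M values), fold changes are Zeb1∆M/ApoeKO against Zeb1WT/ApoeKO on the log2 scale from edgeR, and 0.1 is the smallest p that an exact permutation test of 2 libraries against 3 allows.

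**Figure D1:**
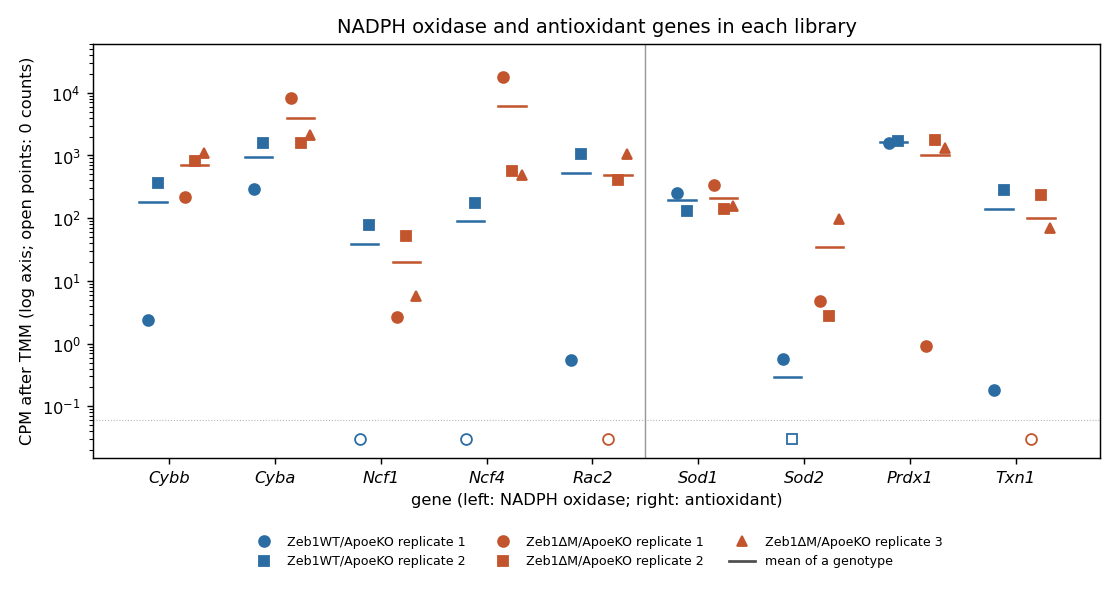
Level of each gene in each library, in CPM after TMM on a log axis, with open points below the dotted line for 0 counts; blue is Zeb1WT/ApoeKO, red Zeb1∆M/ApoeKO, the shape gives the replicate and short lines are genotype means. *Ncf4* and *Sod2* are the 2 genes whose red points all lie above the blue ones, and the circles, replicate 1, hold many of the lowest values.

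The membrane subunit *Cybb* (ENSMUSG00000015340.10, GRCm38 chrX:9435252-9487771, minus strand) had 66 and 12500 counts in Zeb1WT/ApoeKO replicates 1 and 2, and 2663, 35240 and 54948 in Zeb1∆M/ApoeKO replicates 1, 2 and 3. After scaling these were 2.39 and 363 CPM, and 220, 824 and 1094 CPM. Zeb1∆M/ApoeKO replicates 2 and 3 were above both Zeb1WT/ApoeKO libraries, while replicate 1 lay between them, so the genotypes overlapped. The mean was 183 ± 255 CPM (SD, n = 2) in Zeb1WT/ApoeKO and 712 ± 448 CPM (SD, n = 3) in Zeb1∆M/ApoeKO, with a log2 fold change of 1.96 and a standard error of 3.52. The two-sided exact permutation test gave p = 0.2. Without both libraries numbered 1 the fold change was 1.56 with a standard error of 1.51, again not called (adjusted p = 0.742, edgeR).

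*Cyba*, the partner that stabilizes NOX2 (ENSMUSG00000006519.11, chr8:122424776-122432930, minus strand), was the oxidase gene with the most counts in 4 of the 5 libraries. It had 8055 and 55231 counts in Zeb1WT/ApoeKO, and 101468, 67306 and 106929 in Zeb1∆M/ApoeKO. Scaled to 292 and 1603 CPM against 8373, 1574 and 2128 CPM, the genotypes overlapped by a narrow margin, since Zeb1WT/ApoeKO replicate 2 was just above Zeb1∆M/ApoeKO replicate 2. Relative to total counts alone these 2 libraries were at 1597 and 1882 CPM, and the genotypes did not overlap. Means of 947 ± 927 and 4025 ± 3776 CPM (SD, n = 2 and 3) gave a log2 fold change of 2.09 with a standard error of 2.36 (two-sided exact permutation p = 0.3). Leaving out both libraries numbered 1 took the fold change to 0.36 with a standard error of 0.73. The protein products of *Cyba* and *Cybb* pair as a heterodimer, and their transcripts were far from an even ratio. In TPM, which divide counts by the length of the principal transcript and scale them to a common sum, *Cyba* was 780 and 28.2 times *Cybb* in Zeb1WT/ApoeKO and 243, 12.2 and 12.4 times in Zeb1∆M/ApoeKO.

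The organizer subunit *Ncf1* (ENSMUSG00000015950.13, chr5:134220053-134229625, minus strand) had the lowest median level of the oxidase genes. Zeb1WT/ApoeKO libraries had 0 and 2679 counts, and Zeb1∆M/ApoeKO libraries 32, 2231 and 287. The highest and the lowest values were both in Zeb1WT/ApoeKO, at 0 and 77.7 CPM, with 2.64, 52.2 and 5.71 CPM in Zeb1∆M/ApoeKO between them. Means were 38.9 ± 55.0 and 20.2 ± 27.7 CPM (SD, n = 2 and 3), and the log2 fold change was −0.95 with a standard error of 4.75 (two-sided exact permutation p = 0.8). Mean log2 CPM ran the other way, 1.11 in Zeb1WT/ApoeKO and 3.22 in Zeb1∆M/ApoeKO, so no direction can be given. *Ncf1* shares 408 exonic bases with *Gtf2ird2* on the opposite strand, which had at most 38 counts in any library.

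*Ncf4*, which encodes the subunit that binds phosphoinositides on the phagosome (ENSMUSG00000071715.12, chr15:78244801-78262580, plus strand), had the lowest p of the 9. It had 0 and 6129 counts in Zeb1WT/ApoeKO against 212506, 23841 and 24341 in Zeb1∆M/ApoeKO. This is 0 and 178 CPM against 17535, 557 and 484 CPM, without overlap. Means were 88.9 ± 126 and 6193 ± 9823 CPM (SD, n = 2 and 3), and the SD of Zeb1∆M/ApoeKO exceeded its mean because 1 library held most of the counts. The log2 fold change was 6.12 with a standard error of 2.72, an unadjusted p of 0.0246 and an adjusted p of 1 (edgeR), and the exact permutation p was 0.1, the smallest possible. Leaving out Zeb1∆M/ApoeKO replicate 1 reduced it to 2.504, and leaving out both libraries numbered 1 to 1.70 with a standard error of 2.46. Leaving out Zeb1WT/ApoeKO replicate 2, which leaves a genotype with 0 counts, gave 20.12, and this fitted value is no measure of size.

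*Rac2* (ENSMUSG00000033220.7, chr15:78559167-78572783, minus strand), the hematopoietic GTPase that activates the oxidase, was high or nearly absent. Its counts were 15 and 36878 in Zeb1WT/ApoeKO and 0, 17086 and 52714 in Zeb1∆M/ApoeKO, or 0.543 and 1070 CPM and 0, 400 and 1049 CPM. Each genotype thus had a library numbered 1 near the floor and its other libraries far above it. Means of 535 ± 756 and 483 ± 530 CPM (SD, n = 2 and 3) differed by a log2 fold change of −0.15 with a standard error of 3.25 (two-sided exact permutation p = 1). Mean log2 CPM were 4.67 and 4.87, the opposite order. RAC2 is also abundant in T cells, and the summed level of 7 T cell markers was 10.2 and 3068 CPM of total counts in Zeb1WT/ApoeKO and 1.15, 406 and 806 CPM in Zeb1∆M/ApoeKO. The methods describe a sort for CD11b+ F4/80+ cells, and the part of T cell RNA in the *Rac2* level was not tested.

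Neutrophils express the same oxidase subunits. Of 10 neutrophil markers 5 were above 3 counts in at least 1 library, and *Mpo*, *Camp*, *Ngp* and *Elane* had 0 counts in all 5. *S100a8* had 33862 and 11811 counts in Zeb1WT/ApoeKO and 33132, 22405 and 962 in Zeb1∆M/ApoeKO. *S100a9* had 29483 and 10969 against 0, 4180 and 1041 counts. *Retnlg* had 8892 and 355 against 0, 9370 and 0, and *Mmp8* 0 and 8665 against 581, 0 and 2. The summed level of the 10 markers was 3591 and 919 CPM of total counts in Zeb1WT/ApoeKO and 1384, 1008 and 39.6 CPM in Zeb1∆M/ApoeKO. The methods describe a gate on F4/80, and the part of neutrophils in the oxidase levels was not tested.

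Among the antioxidant genes *Sod1* (ENSMUSG00000022982.10, chr16:90220754-90226329, plus strand) was the steadiest. It had 7043 and 4481 counts in Zeb1WT/ApoeKO and 4099, 5941 and 7883 in Zeb1∆M/ApoeKO. Scaled, these were 255 and 130 CPM against 338, 139 and 157 CPM, and the libraries of each genotype were interleaved. The highest library was 2.60-fold above the lowest, compared with 28.7-fold for *Cyba*, 458-fold for *Cybb* and 1928-fold for *Prdx1*. Against the floor of 3 counts, the spread was at least 716-fold for *Ncf1*, 1103-fold for *Sod2*, 1144-fold for *Txn1*, 4323-fold for *Rac2* and 161440-fold for *Ncf4*. *Sod1* means were 193 ± 88.4 and 211 ± 110 CPM (SD, n = 2 and 3), with a log2 fold change of 0.13 and a standard error of 4.01 (two-sided exact permutation p = 0.9). That error is much wider than the spread of *Sod1* itself. In edgeR the dispersion is estimated with information shared over genes, and its common value was 6.44. What set the error of *Sod1* was not tested. Without Zeb1∆M/ApoeKO replicate 1 the fold change was −0.64 and without Zeb1WT/ApoeKO replicate 2 it was −0.56.

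*Sod2* (ENSMUSG00000006818.5, chr17:13006846-13040063, plus strand), the mitochondrial dismutase and a known target of NF-κB, was low in 4 of the 5 libraries. There were 16 and 0 counts in Zeb1WT/ApoeKO and 59, 117 and 4824 in Zeb1∆M/ApoeKO. All 3 Zeb1∆M/ApoeKO libraries, at 4.87, 2.74 and 96.0 CPM, lay above the 0.579 and 0 CPM of Zeb1WT/ApoeKO. Means were 0.290 ± 0.410 and 34.5 ± 53.3 CPM (SD, n = 2 and 3), the latter made mostly by replicate 3. The log2 fold change of 6.88 had a standard error of 6.57 (unadjusted p = 0.295, adjusted p = 1, edgeR), and the exact permutation p was 0.1, the smallest possible. Without Zeb1∆M/ApoeKO replicate 3 the fold change was 3.83.

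*Prdx1* (ENSMUSG00000028691.12, chr4:116685544-116700822, plus strand) was high in 4 libraries and nearly absent from the fifth. It had 43462 and 57679 counts in Zeb1WT/ApoeKO and 11, 74860 and 67038 in Zeb1∆M/ApoeKO. The 4 higher libraries lay at 1574 and 1674 CPM (Zeb1WT/ApoeKO) and 1750 and 1334 CPM (Zeb1∆M/ApoeKO), and Zeb1∆M/ApoeKO replicate 1 at 0.908 CPM. Means were 1624 ± 70.8 and 1029 ± 914 CPM (SD, n = 2 and 3), with a log2 fold change of −0.66 and a standard error of 2.62 (two-sided exact permutation p = 0.7). Without both libraries numbered 1 it was 0.03 with a standard error of 0.79. There are 3 processed pseudogenes that share at least 90% identity with *Prdx1* over 300 bases or more, and reads between such copies could be split. The 3 together had 100 and 322 counts in Zeb1WT/ApoeKO and 5, 161 and 153 in Zeb1∆M/ApoeKO.

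*Txn1* (ENSMUSG00000028367.5, chr4:57943373-57956411, minus strand) had 5 and 9759 counts in Zeb1WT/ApoeKO and 0, 10110 and 3475 in Zeb1∆M/ApoeKO. At 0.181 and 283 CPM against 0, 236 and 69.2 CPM, it was high and low in the same libraries as *Rac2*. Means of 142 ± 200 and 102 ± 122 CPM (SD, n = 2 and 3) gave a log2 fold change of −0.48 with a standard error of 4.44 (two-sided exact permutation p = 1). Mean log2 CPM were 3.05 and 3.31, again in the opposite order. Leaving out Zeb1WT/ApoeKO replicate 2 turned the fitted fold changes of *Txn1*, *Rac2* and *Ncf1* to 9.12, 9.81 and 12.43, the last with *Ncf1* at 0 counts in the remaining Zeb1WT/ApoeKO library and thus no measure of size. Hence the direction for these 3 genes was not kept without that library, and it also turned in settings that kept it. *Ncf1* turned to 3.52 with limma-voom and to 3.74 with the replicate block. *Rac2* also turned to 0.38 without Zeb1∆M/ApoeKO replicate 1 and to 0.066 without replicate 2, and *Txn1* to 0.071 without replicate 1. Pseudogenes like *Sod1* (*Gm8566*) and *Txn1* (*Txn-ps1*) had at most 15 and 1 counts.

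**Figure D2:**
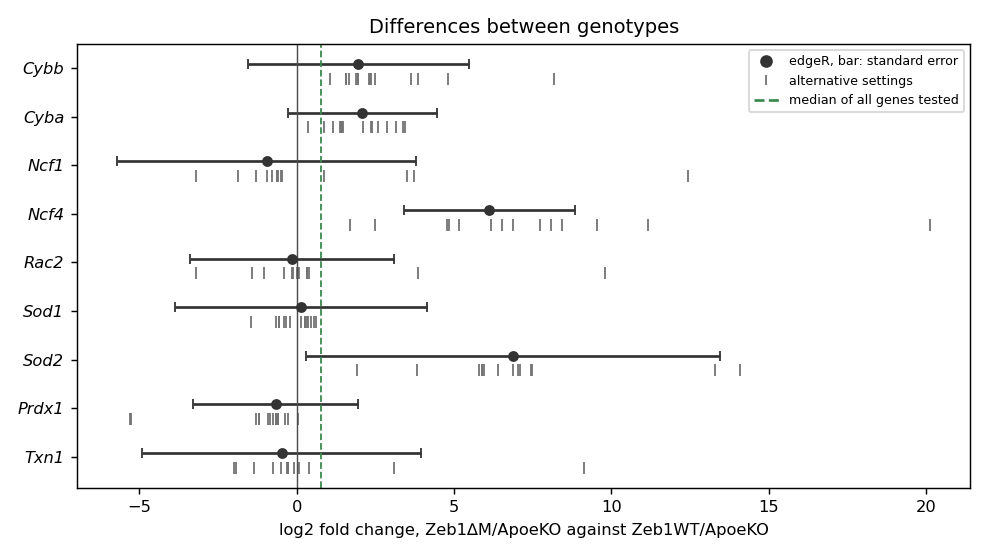
Log2 fold change of each gene in Zeb1∆M/ApoeKO against Zeb1WT/ApoeKO; points and bars are edgeR's value and standard error, ticks the values under the other settings, and the dashed line the median of all genes tested (0.78). Ticks for *Cybb*, *Cyba*, *Ncf4* and *Sod2* all lie above 0, while those of the other 5 genes fall on both sides.

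Of the 9 fold changes 5 were above and 4 below 0. Their median was 0.13, and the median over all 7905 genes tested was 0.78, with 4 of the 9 above it and 5 below. The 5 oxidase genes had a median of 1.96 and the 4 antioxidant genes −0.17. The median of all genes moved with the scaling, from 0.78 with TMM to 1.24 with RLE factors, 0.29 with upper-quartile factors and 0.13 with total counts alone. Relative to that median *Cybb*, *Cyba*, *Ncf4* and *Sod2* were above it and *Sod1* and *Prdx1* below it with all 4 scalings, while *Ncf1*, *Rac2* and *Txn1* were above it with upper-quartile factors only. Other settings moved the median further, and with it the order. Each median is over the genes that the setting fitted, so these medians do not all describe the same genes. There were 7905 in the main fit and 27091 with no filter beyond 1 count in total. Without Zeb1WT/ApoeKO replicate 1 there were 13364, and without replicate 2 there were 13326. With DESeq2 the median was 3.56, above *Cybb* (2.37) and *Cyba* (3.16), and with no filter beyond 1 count in total it was 2.54, above *Cybb* (2.30) and *Cyba* (1.43). Without Zeb1WT/ApoeKO replicate 1 it was 6.42, above *Cybb* (1.05), *Cyba* (1.16) and *Ncf4* (4.84), and without Zeb1WT/ApoeKO replicate 2 it was 6.32, above *Cyba* (3.39) and *Sod2* (5.90). *Cyba* (0.36) was also below the median of 0.68 without both libraries numbered 1. In the other direction, *Ncf1* (12.43), *Rac2* (9.81) and *Txn1* (9.12) were above the median without Zeb1WT/ApoeKO replicate 2. *Ncf1* (3.74) was also above the median of 0.60 with the replicate block. *Rac2* (0.38) was above the median of 0.14 without Zeb1∆M/ApoeKO replicate 1. With limma-voom the median was −0.30, below *Sod1* (−0.20), *Ncf1* (3.52), *Rac2* (3.85) and *Txn1* (3.10). The sign relative to 0 was kept in all 15 alternatives with a value for *Cybb* (1.05 to 8.19) and *Cyba* (0.36 to 3.45) and in all 14 for *Ncf4* (from 1.70) and *Sod2* (from 1.93). Where Zeb1WT/ApoeKO was left with 0 counts of a gene the fitted value has no meaning as a size, and in the other settings the highest values were 11.17 for *Ncf4* and 7.49 for *Sod2*. None of these had an adjusted p under the threshold, with *Ncf4* given none by DESeq2.

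Expressed as a share of the library, the oxidase genes together took 0.0404% of counts in Zeb1WT/ApoeKO replicate 1 (exact 95% binomial interval 0.0396 to 0.0413%) and 0.328% in replicate 2 (0.326 to 0.330%). In Zeb1∆M/ApoeKO the shares were 1.299% (1.295 to 1.304%), 0.407% (0.405 to 0.409%) and 0.472% (0.470 to 0.474%). The 3 Zeb1∆M/ApoeKO shares were the 3 highest, with a mean of 0.726 ± 0.497% (SD, n = 3) against 0.184 ± 0.203% (SD, n = 2). Without Zeb1∆M/ApoeKO replicate 1 the Zeb1∆M/ApoeKO mean was 0.440%. Of TMM effective library size, with all libraries, the means were 0.179% in Zeb1WT/ApoeKO and 1.143% in Zeb1∆M/ApoeKO, whose replicate 1 was at 2.613%. On that scale Zeb1∆M/ApoeKO replicate 2 (0.341%) was just above Zeb1WT/ApoeKO replicate 2 (0.329%). *Cyba* made 99.0% of the sum in Zeb1WT/ApoeKO replicate 1, and *Ncf4* 67.1% in Zeb1∆M/ApoeKO replicate 1. The antioxidant genes took 0.251% (0.249 to 0.253%) and 0.208% (0.206 to 0.209%) in Zeb1WT/ApoeKO. In Zeb1∆M/ApoeKO they took 0.0171% (0.0166 to 0.0176%), 0.254% (0.253 to 0.256%) and 0.164% (0.163 to 0.165%). *Prdx1* made 80.2 to 86.0% of this sum, except in Zeb1∆M/ApoeKO replicate 1, where *Sod1* made 98.3%. Means were 0.230 ± 0.0306% (SD, n = 2) and 0.145 ± 0.120% (SD, n = 3), and the ranges overlapped.

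**Figure D3:**
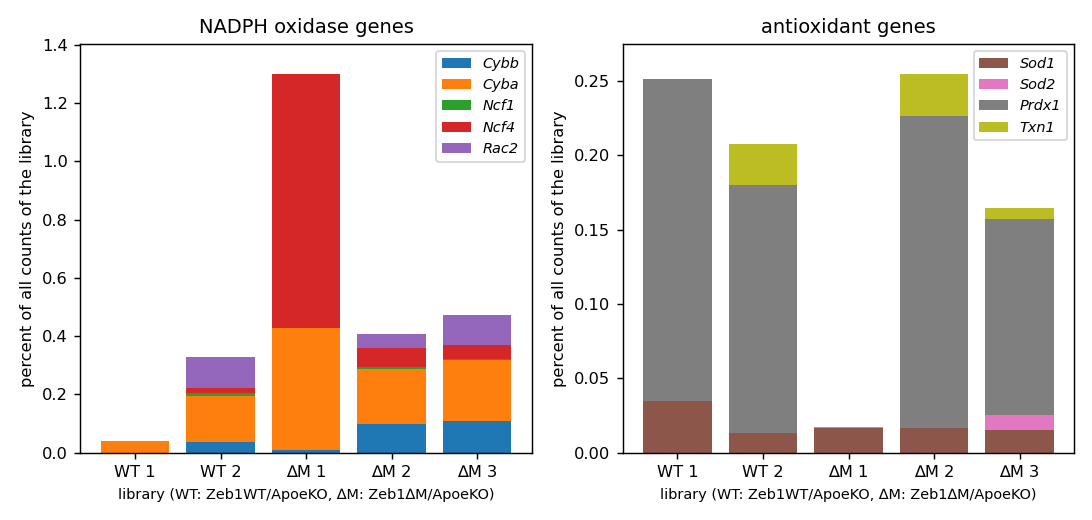
Counts of the 5 oxidase genes (left) and the 4 antioxidant genes (right) as a percent of all counts of each library, stacked by gene; the 2 panels have different vertical scales. Zeb1∆M/ApoeKO replicate 1 had the highest oxidase share, 1.299%, most of it *Ncf4*, and the lowest antioxidant share, 0.0171%.

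Per length, *Cyba* was the highest of the 9, with a median of 3753 TPM and a range of 739 to 6831 TPM over the 5 libraries. Among protein-coding genes it ranked 315 and 23 in Zeb1WT/ApoeKO and 29, 26 and 24 in Zeb1∆M/ApoeKO. *Prdx1* followed with a median of 1241 TPM, *Ncf4* with 506 TPM, *Sod1* with 374 TPM and *Rac2* with 233 TPM. Lower were *Cybb* (130 TPM), *Txn1* (101 TPM), *Ncf1* (3.21 TPM) and *Sod2* (0.504 TPM). The ranges of all 8 pairs of neighbours in this order overlapped. Compared within libraries, *Cyba* was above *Prdx1*, *Prdx1* above *Ncf4* and *Txn1* above *Ncf1* in 4 of the 5. *Rac2* was above *Cybb* in 2, and the remaining neighbours kept the order in 3, so no step held in all 5 libraries.

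The genes whose level followed *Cybb* most closely over the 5 libraries were not subunits of the oxidase. Among 7898 genes the highest Pearson r of log2 CPM were those of *Timm10b* (0.992), *Ndufb7* (0.989) and the pseudogene *Eef1a1-ps1* (0.986), and 137 genes (1.73%) had r above 0.9. Of the other 8 genes *Ncf1* (0.866) and *Ncf4* (0.839) were nearest to *Cybb*, followed by *Cyba* (0.687), *Txn1* (0.641), *Rac2* (0.618) and *Sod2* (0.376). *Prdx1* (−0.05) and *Sod1* (−0.54) did not follow it. These values describe 5 libraries, which share their depth and their dropout among all genes, and carry no test.

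The wider pathway was read from 8 lists that hold the 9 genes and 74 others. Of the 74, 52 were tested and 0 were called by edgeR (25 higher, 27 lower, median log2 fold change −0.29), and 2 were called by limma-voom (3.85% of the 52, against 2.96% of all genes). DESeq2 called 6 of the 36 with an adjusted p (16.7%, against 12.1% of all genes), of which 3 were outside the 52. Genotypes did not overlap for 4 of the 52, 2 higher and 2 lower, against 11.2% of all genes tested in either direction. Only 12 of the 74 had more than 3 counts in all 5 libraries. At 100 counts or more, 22 and 48 of the 83 list genes were present in Zeb1WT/ApoeKO and 14, 42 and 44 in Zeb1∆M/ApoeKO, with the fewest in the libraries numbered 1, as for the 9 genes.

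**Figure D4:**
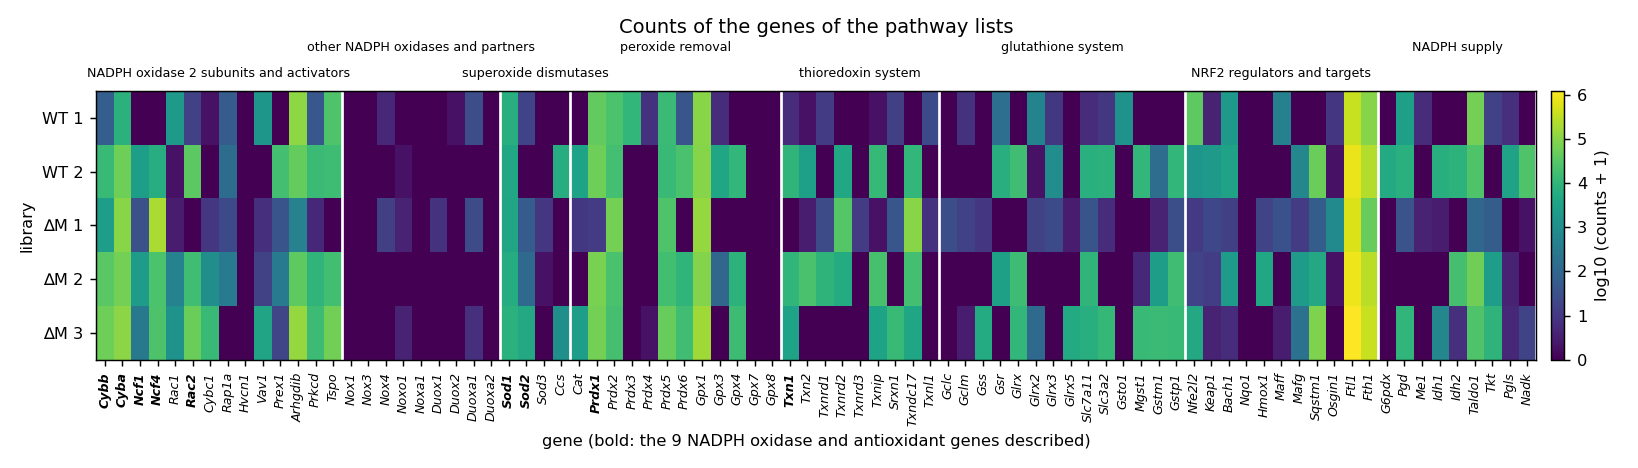
Counts of the list genes, 1 gene left out, in each library as log10 of counts plus 1, in columns grouped by list and with the 9 genes in bold; rows are libraries, WT for Zeb1WT/ApoeKO and ∆M for Zeb1∆M/ApoeKO. The rows of the libraries numbered 1 are dark in many columns that are bright in the others, while *Gpx1*, *Ftl1* and *Fth1* are bright in all 5 rows.

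Of the 15 genes for NOX2 subunits and activators, 14 were tested, 5 with higher and 9 with lower fitted values and a median of −0.30. *Cybc1*, a chaperone needed for NOX2 to mature, had 1 and 0 counts against 8, 1032 and 13171, without overlap. Its mean was at least 978-fold higher in Zeb1∆M/ApoeKO against a floor of 3 counts per library, and at least 127-fold without Zeb1∆M/ApoeKO replicate 3. The adjusted p was 1 by edgeR, 0.0106 by DESeq2 and 0.0041 by limma-voom. *Prex1*, which loads RAC2 with GTP, had 0 and 19221 counts against 38, 343 and 18, with a log2 fold change of −6.18 and a standard error of 5.17. *Arhgdib*, a GDP-dissociation inhibitor that binds RAC2, had 116532 and 44133 counts against 500, 38005 and 132014. The kinase *Prkcd*, which phosphorylates p47phox, had 45 and 14160 against 4, 9699 and 14931 counts. *Tspo*, *Vav1* and *Rap1a* were above 3 counts in 4 libraries each, with log2 fold changes of −0.36, −0.37 and 0.09 and standard errors of 3.11, 4.76 and 3.88.

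The other NADPH oxidases and their partners were close to absent, with 6 of 9 genes at 3 counts or fewer in every library and 1 tested. Of the 4 superoxide dismutase genes 3 were tested, 2 with higher and 1 with lower values. In the list for peroxide removal 8 of 12 were tested, 4 higher and 4 lower. *Gpx1*, the cytosolic glutathione peroxidase, was high in every library, with 102481 and 99403 counts in Zeb1WT/ApoeKO and 133418, 94806 and 169094 in Zeb1∆M/ApoeKO (log2 fold change 0.75, standard error 1.96). In scaled CPM its highest library was 4.97-fold above its lowest. *Prdx5* had 14265 and 12708 against 26828, 17409 and 47141 counts, for 1.42 with a standard error of 3.03. *Prdx2*, which is abundant in erythrocytes, had 23033 and 19316 against 66804, 22058 and 20398 counts, for 1.62 with a standard error of 2.67. Its highest library was also the one with hemoglobin transcripts, in which 5 erythroid genes summed to 8029 CPM of total counts against at most 3.73 CPM elsewhere. The cells were sorted for CD45 and F4/80, and the part of erythroid RNA in the *Prdx2* level was not tested. *Prdx6* had 41 and 22311 against 0, 9511 and 16493 counts.

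In the thioredoxin list 7 of 9 genes were tested, 6 higher and 1 lower, and *Txn1* was the lower one. *Txndc17*, a thioredoxin-like protein, had 0 and 11028 counts against 103640, 18986 and 3981, for a log2 fold change of 4.24 with a standard error of 2.92. Like *Ncf4*, it was at 0 in Zeb1WT/ApoeKO replicate 1 and highest in Zeb1∆M/ApoeKO replicate 1. Of 14 glutathione genes 11 were tested, 5 higher and 6 lower. The cystine transporter subunits *Slc7a11* (5 and 7234 against 38, 9479 and 7169 counts) and *Slc3a2* (9 and 8283 against 5, 0 and 11294 counts) overlapped between genotypes. So did *Gstp1*, with 0 and 11133 against 28, 16525 and 12810 counts.

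NRF2 regulators and targets were tested for 10 of 11 genes, 5 higher and 5 lower. *Nfe2l2*, which encodes NRF2, had 37618 and 1620 counts against 10, 16 and 4781, for −4.45 with a standard error of 3.92. *Bach1*, the repressor at the same element, had 1845 and 3315 counts against 13, 2279 and 5. Its scaled levels did not overlap and were lower in Zeb1∆M/ApoeKO, with a log2 fold change of −2.17 and a standard error of 4.90. The ferritin genes were high in all libraries, *Ftl1* with 393894 and 828856 against 580038, 872898 and 1247821 counts (0.70, standard error 1.24) and *Fth1* with 94946 and 251413 against 47008, 285607 and 385254 (0.18, standard error 1.82). *Sqstm1* and *Mafg* were at 0 counts in Zeb1WT/ApoeKO replicate 1 and overlapped between genotypes.

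Of 9 genes that supply NADPH, the fuel of the oxidase and of thioredoxin reductase, 7 were tested, 2 higher and 5 lower, with a median of −1.33. Transketolase (*Tkt*) had 14 and 0 counts against 61, 2566 and 9307, without overlap, for 8.34 with a standard error of 7.32. Its adjusted p was 1 by edgeR, 0.132 by DESeq2 and 0.0412 by limma-voom. *Pgls* had 6 and 3188 counts against 0, 3 and 4, and did not overlap in the other direction (−9.70, standard error 6.13, adjusted p of 1 by edgeR and 0.0414 by DESeq2). *Taldo1* had 66834 and 25618 against 108, 57951 and 26249 counts, and *Pgd* 2756 and 7374 against 35, 0 and 10384.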

How the data were processed

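RNAseq of sorted aortic macrophages was analysed from 5 libraries, 2 Zeb1WT/ApoeKO and 3 Zeb1∆M/ApoeKO, with genotypes as labelled. Library preparation used a kit for ultra-low input, in which cDNA of few cells is amplified. Paired-end reads were aligned by the authors to GRCm38 using STAR (2.5.3a in the submitters' processing notes). The authors quantified genes with RSEM (1.3.0) and deposited expected counts as whole numbers, without normalization or a filter on genes. Such counts divide reads that fit several genes by a model and hold zeros for transcripts lost before amplification.

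Counts were tested with edgeR 4.0.16 in R 4.3.3. Of 55487 genes, filterByExpr (minimum count 10) kept 7905, among them all 9 genes. TMM factors and the quasi-likelihood test without covariates were used. A gene was called if its p, adjusted by Benjamini-Hochberg over all genes tested, was under 0.05. The standard error is the one implied by that test. Log2 CPM used a prior count of 2. Each gene's log2 CPM was also compared by an exact permutation test, two-sided, with 10 ways to assign the genotypes. TPM used the length of the longest principal transcript in GENCODE M21, which matched 55227 identifiers without their version. Similar transcripts were those with at least 90% identity over 300 bases. Marker sums are CPM of total counts.

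The genes named are the 9 genes, list genes above 3 counts in at least 4 libraries or without overlap between genotypes, the 3 genes nearest to *Cybb*, markers, and overlapping or similar genes. For 1 list gene that the rule names the values are not reported here. *Prdx3*, *Gsto1*, *Hmox1* and *G6pdx* were named after their values were seen. The genes and lists were chosen with earlier results of these data known. Alternatives were DESeq2 1.42.0, limma-voom (limma 3.58.1), other scalings and filters, a replicate block, a threshold of 0.1 and each library left out. Leaving out both libraries numbered 1, or mitochondrially encoded genes, was added after seeing the data. Permutation tests and figures used scipy 1.17.1 and matplotlib 3.10.9 in Python 3.11.15.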

Additional observations from a re-analysis of the deposited data

How the results depend on the processing

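None of the 9 genes was called under any of 16 alternatives, including a threshold of 0.1, with *Ncf4* given no adjusted p by DESeq2, whereas the number called among all genes was 790 with DESeq2, 234 with limma-voom, 2 without both libraries numbered 1 and 0 under the other settings; among the list genes it was 6 with DESeq2 and 2 with limma-voom. The number of the 9 genes whose genotypes did not overlap, 2 with TMM, was 4 with DESeq2 (2.47% of all 55487 genes) and with RLE factors (10.9% of genes tested), 3 with total counts alone (11.8%) and with no filter beyond 1 count in total (5.36%), 7 without both libraries numbered 1 (59.2%), 2 to 6 when 1 library was left out (21.6 to 30.7%), and 0 when 10 counts were required in every library (16.9%), a filter that leaves no value for *Ncf1*, *Ncf4*, *Rac2*, *Sod2* and *Txn1*. Log2 fold changes of 5 genes changed sign. With limma-voom *Rac2* was 3.85, *Ncf1* 3.52, *Txn1* 3.10 and *Sod1* −0.20, and with upper-quartile factors *Rac2* was 0.32, *Ncf1* 0.86, *Txn1* 0.41 and *Sod1* −1.45. *Rac2* was also 0.02 with DESeq2, 0.043 with RLE factors and 0.33 with no filter, and *Sod1* −0.56 with total counts alone, −0.34 with no filter and −0.39 with 10 counts in every library. *Prdx1* was 0.034 without both libraries numbered 1, −5.27 with upper-quartile factors and −5.29 with the replicate block. With 1 library left out the ranges were −1.43 to 9.81 (*Rac2*), −3.20 to 12.43 (*Ncf1*), −1.94 to 9.12 (*Txn1*) and −0.64 to 0.61 (*Sod1*); where Zeb1WT/ApoeKO was left with 1 library, that library was assumed to vary like the others, and 12.43 is fitted against 0 counts and is no measure of size. The cause of these changes was not tested. Of TMM effective library size and of total counts, the mean antioxidant share of Zeb1WT/ApoeKO was 0.196% and 0.230%, and the mean oxidase share of Zeb1∆M/ApoeKO 1.143% and 0.726%. The replicate block, fitted because replicates 1 and 2 occur in both genotypes, called 0 genes and gave 3.74 for *Ncf1* against −0.95 without it; Zeb1∆M/ApoeKO replicate 3 is alone in its block there and adds nothing to the comparison. Across genes the differences between replicates 1 and 2 of the 2 genotypes correlated with r = 0.18, and with 2 pairs the numbers do not show a shared origin. Depth limits genes at 3 counts or fewer, for which absence and loss before amplification cannot be told apart.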

Other observations

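Among the list genes called by DESeq2, 5 of 6 reached 100 counts in a single library. *Prdx3*, the mitochondrial peroxiredoxin, had 10594 counts in Zeb1WT/ApoeKO replicate 1 and 0 in the other 4 libraries (DESeq2 log2 fold change −29.73, adjusted p = 3.75e-09). That fold change is fitted against a genotype with 0 counts and is no measure of size. *Gsto1*, an omega class glutathione transferase, had 1355 counts in the same library and 0 elsewhere (adjusted p = 2.96e-08 by DESeq2). Glucose-6-phosphate dehydrogenase (*G6pdx*), the entry enzyme of the pentose phosphate pathway, had 5299 counts in Zeb1WT/ApoeKO replicate 2 and 0 elsewhere (adjusted p = 2.19e-08 by DESeq2). Heme oxygenase 1 (*Hmox1*) had 17 counts in Zeb1∆M/ApoeKO replicate 1, 4262 in replicate 2 and 0 in the other 3 libraries (adjusted p = 3.91e-07 by DESeq2, 1 by edgeR). In each of these genes at least 1 library of the genotype with the higher mean was at 0. *Prdx3*, *Gsto1* and *G6pdx* did not pass the filter of the edgeR fit, and these 4 genes were singled out after their values were seen.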
